A study of Mus musculus with 6 samples.

Results

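The nuclei described here are inhibitory nuclei of the aged mouse hippocampus that carry transcripts of Cnr1, the cannabinoid receptor CB1, and of Adarb2, a relative of the RNA-editing enzymes that marks interneurons born in the caudal ganglionic eminence. They were chosen by counts of unique molecular identifiers (UMIs, each standing for a captured transcript). A nucleus had to hold at least 500 UMIs with at most 5% from mitochondrial genes, at least 3 UMIs of Gad1 and Gad2 together, at least 3 of Cnr1 and at least 1 of Adarb2. It could hold no UMI of Lamp5 or Pvalb, at most 1 of Vip and at most 2 of Sst. The rule found 391 nuclei, which were 0.734% of 53294 filtered nuclei and 10.1% of the 3890 nuclei with at least 3 UMIs of Gad1 and Gad2. The levels of these 8 genes therefore follow from the choice and are given without a test.

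Nuclei were isolated from frozen hippocampi of mice aged 18 to 20 months, whose strain is not given in the sources used here. In 3 libraries the mice had breathed 2% sevoflurane, a volatile anaesthetic, in 60% oxygen at 1 L/min for 6 h, and in 3 control libraries 60% oxygen alone at the same flow and for the same time. The comparison asks how these nuclei differ after anaesthesia. The number of animals behind each library is not stated, and a p-value here reflects only how libraries vary, which may be technical.

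In the hippocampus, interneurons with CB1 include the cholecystokinin basket cells, which contact the cell bodies of pyramidal neurons. Pyramidal neurons release endocannabinoids that act on CB1 at the interneuron's axon terminal and lower the release of GABA. These cells respond to serotonin and acetylcholine, and many carry the kainate receptor subunit GluK1. Volatile anaesthetics act, among other targets, on GABA-A receptors and two-pore potassium channels.

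The 6 libraries held 56334621 to 72636984 UMIs as deposited. The selected nuclei numbered 70, 67 and 65 in sevoflurane replicates 1 to 3 and 65, 66 and 58 in oxygen replicates 1 to 3. Their summed counts ran from 735921 to 955066 UMIs per library, and the median nucleus held 11017 UMIs, with a lowest value of 3018. No barcode of a selected nucleus occurred in 2 libraries, while pairs of libraries shared 15 to 33 filtered barcodes. By their labels, replicates 1 and 2 came from males and replicate 3 from females, in both groups. Yet Xist, the RNA of the inactive X chromosome, stood at 960 counts per 1000000 UMIs (CPM) in sevoflurane replicate 1 and at 1.02 CPM or less in the other 5 libraries, and 4 Y-linked genes summed to 1.29 CPM in that library against 362 to 474 CPM elsewhere. The sex labels of 3 libraries thus went against their transcripts. The treatment labels have no such check, and values without sevoflurane replicate 1 are given below.

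Gad1 gave 2.77 to 3.88 UMIs per selected nucleus in the 6 libraries, Gad2 3.63 to 5.40, Cnr1 9.51 to 12.2 and Adarb2 125 to 224. Nuclei of oligodendrocytes, chosen by a high count of an oligodendrocyte transcript and no UMI of Gad1, Gad2 or Slc17a7, held 0.16 to 0.23 UMIs of Cnr1 and 0.25 to 0.76 of Adarb2. These nuclei held fewer UMIs in all (2938 to 3918 per nucleus on average), so the levels per nucleus are not at equal depth. Cck, the neuropeptide cholecystokinin, was not used in the rule, unlike Gad1, Gad2, Cnr1 and Adarb2, whose levels follow from the choice. It gave 1.05 to 2.49 UMIs per selected nucleus, 0.82 to 1.14 in the other inhibitory nuclei, 0.93 to 1.18 in excitatory nuclei and 0.67 to 0.93 in oligodendrocyte nuclei. On the CPM scale the Cck of oligodendrocyte nuclei (186 to 281 CPM) was above that of the selected nuclei (87.7 to 176 CPM). Cck UMIs at this level cannot be told from background in a single nucleus.

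Of the selected nuclei, 371 held at least 10 UMIs of Adarb2 and 13 held 1 or 2. At the edge of the rule, 49 nuclei held exactly 3 Cnr1 UMIs, and another 106 that met every other condition held 2 and stayed out. Before the 4 exclusions, 559 nuclei met the conditions on Gad1, Gad2, Cnr1 and Adarb2. Lamp5 removed 81 of them, Vip 67, Pvalb 35 and Sst 6, with some removed by more than 1 gene. Transcripts of other cells were present. At least 2 UMIs of a set of excitatory genes that includes Slc17a7, Slc17a6, Neurod2 and Neurod6 were found in 123 selected nuclei. At least 3 UMIs of a set of glial and vascular genes that includes Mog, Slc1a3, Aqp4, Pdgfra, Csf1r and Flt1 were found in 132, and either in 209. Scrublet called 7 selected nuclei doublets, 3, 3 and 1 in the sevoflurane libraries and 0 in each oxygen library. Oligodendrocyte markers summed to 200 to 764 CPM in the oxygen libraries and 197 to 299 CPM after sevoflurane. All 6 of them were tested and 0 were called. Choroid plexus and ependymal markers, which belong to no neuron, summed to 58.3 to 246 CPM under oxygen and 9.20 to 20.7 CPM after sevoflurane. The part that these transcripts play in the results below was not tested beyond the values given there.

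Relative to the other 3499 inhibitory nuclei, the selected nuclei carried a distinct set of transcripts, described here without a test because all come from the same libraries and the rule chose the nuclei. Syt6, a synaptotagmin, averaged 171 CPM against 9.73 CPM. Cadps2, which primes dense-core vesicles, averaged 1382 against 135 CPM. Frem1 averaged 331 against 44.99 CPM, and Pde3a, which breaks down cyclic AMP and cyclic GMP, 397 against 61.6 CPM. The transcription factors Npas1 and Npas3 averaged 199 and 3929 CPM against 26.2 and 782 CPM. Slc17a8, the vesicular glutamate transporter VGLUT3 that part of the cholecystokinin basket cells carry, averaged 38.2 against 3.64 CPM, while in oligodendrocyte nuclei it averaged 0.82 CPM. On the low side stood Sox6, a transcription factor of interneurons from the medial ganglionic eminence, with 24.4 against 196 CPM, Nxph1, a neurexin ligand, with 346 against 1606 CPM, and Moxd1 with 2.32 against 31.3 CPM. Several of these genes did not set the selected nuclei apart from Vip nuclei, which held at least 3 Vip UMIs. Vip nuclei averaged 2740 CPM of Npas3, 148 CPM of Npas1, 24.8 CPM of Sox6, 4.50 CPM of Moxd1 and 118 CPM of Nxph1. They held less Syt6 (19.7 CPM), Slc17a8 (1.73 CPM), Cadps2 (323 CPM) and Pde3a (103 CPM).

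The selected nuclei were not uniform. Grouping them by expression gave 9 divisions of 15 to 71 nuclei, which are described by their leading genes and are not given cell type names. The first, with 71 nuclei, was led by Frem1 (1034 CPM against 173 CPM in the rest) and Slc17a8 (153 against 13.3 CPM), and held the highest Cck of all divisions (253 CPM) together with Krt73 (58.1 CPM). The second, with 53 nuclei, was led by the protease inhibitor Serpine2 (362 against 60.5 CPM) and by Ptprk, and had the highest Calb1, which encodes calbindin, at 139 CPM. It was also led by the oligodendrocyte genes Mbp (247 against 50.8 CPM), Mobp and Mog, and by Pde4b (1067 against 295 CPM). The sixth, with 44 nuclei, was led by Cntnap5b (913 against 117 CPM) and Cadps2 (4042 against 1027 CPM), and held the highest Cxcl14, a chemokine transcript (99.1 CPM).

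Reln, which encodes the secreted glycoprotein reelin, set other divisions apart. The seventh (38 nuclei) held 2572 CPM and the ninth (15 nuclei) 3517 CPM, while the eighth (26 nuclei) held 3.65 CPM. The ninth was led by Sv2c (324 against 10.6 CPM), Nxph1 and the receptor genes Egfr and Kit, and had a median of 44.0 Adarb2 UMIs per nucleus, the lowest of the divisions. The fourth (48 nuclei) was led by Col5a2, Pde3a (1592 against 242 CPM) and the oestrogen receptor gene Esr1 (235 against 37.8 CPM). In the fifth (46 nuclei), led by the glutamate receptor gene Grm8 (1075 against 93.1 CPM), Zfp804a and Prox1 (340 against 38.8 CPM), Vip stood at 25.2 CPM and Penk at 37.8 CPM. The eighth was led by the muscarinic receptor gene Chrm2 (460 against 34.3 CPM, in 8 of its nuclei), the opioid receptor gene Oprd1 and Ntng1. It had 7.30 CPM of Npas1 and 3.65 CPM of Cadps2, both of which were high in the set as a whole.

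**Figure D1:**
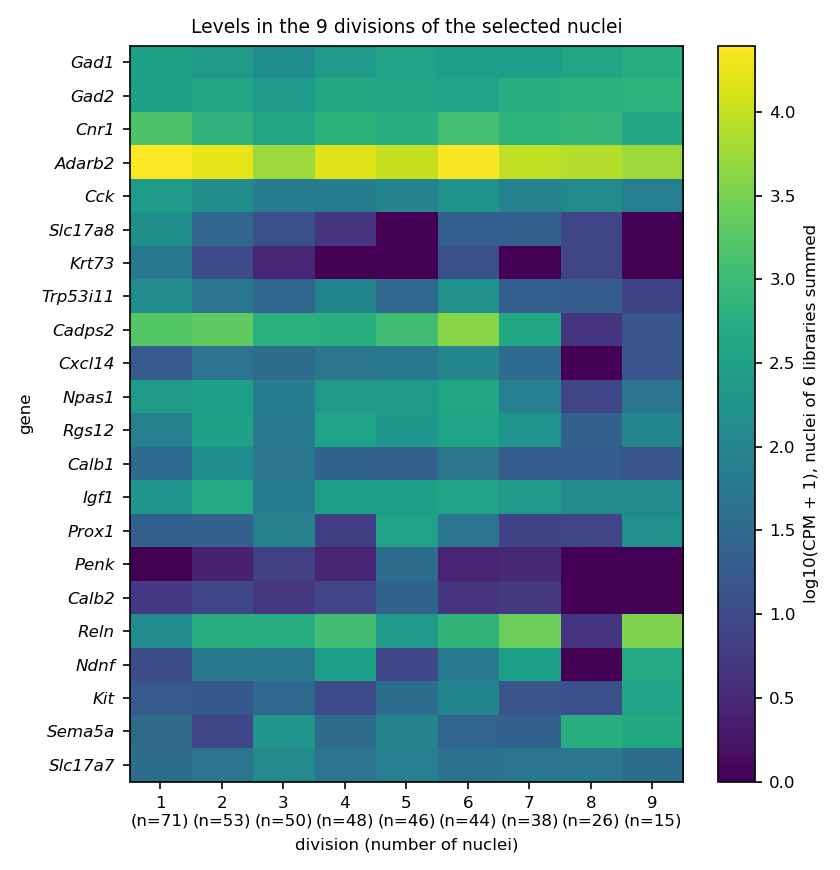
Levels of 22 genes (log10 of CPM + 1, colour) in the 9 divisions of the 391 selected nuclei, with the number of nuclei under each column and the 6 libraries summed. Adarb2 is the brightest row in all divisions, Slc17a8 and Cck are highest in division 1 (153 and 253 CPM), and Reln runs from 3.65 CPM in division 8 to 3517 CPM in division 9.

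The third division stood apart from the others in its excitatory transcripts. It held 50 nuclei, 33 from sevoflurane and 17 from oxygen libraries, of which 36 had at least 2 excitatory UMIs. It included 5 of the 7 doublets. Its leading genes were Slit3 (1009 against 60.3 CPM), Hs3st4 (509 against 24.2 CPM) and Glis3 (198 against 9.67 CPM), and its median of 16160.5 UMIs per nucleus was the highest. Meis2 stood at 112 CPM there and at no more than 32.9 CPM in any other division. Shares of the divisions varied widely between libraries of 1 group, as in the first division, which made up 10.8% of the selected nuclei in oxygen replicate 1 and 24.2% in oxygen replicate 2. The treatments are therefore also compared without the third division (341 nuclei) and with 8 divisions averaged at 1 fixed mix, both chosen after seeing the data.

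The share of selected nuclei among filtered nuclei was similar in both groups. It was 0.819%, 0.729% and 0.732% in the oxygen libraries and 0.699%, 0.731% and 0.707% after sevoflurane. The means were 0.760% ± 0.0508 and 0.712% ± 0.0165 (SD, n = 3 each), with overlapping groups (two-sided exact permutation test, p = 0.2). Among inhibitory nuclei the share was 10.8%, 13.4% and 10.6% under oxygen and 9.78%, 9.44% and 7.93% after sevoflurane. These groups did not overlap, and the means were 11.6% ± 1.56 and 9.05% ± 0.985 (SD, n = 3 each), a difference of -2.54 percentage points. The two-sided exact permutation test gave p = 0.1, the smallest value that 3 against 3 libraries allow, so the design cannot place this difference below 0.05. The denominator moved with the treatment, at 493 to 604 inhibitory nuclei per oxygen library and 710 to 820 per sevoflurane library. Part of it held septal markers, with at least 2 UMIs of Zic1, Zic4, Ano1 and Lhx8 together. Of 646, 643 and 755 other inhibitory nuclei in sevoflurane replicates 1 to 3, 540, 523 and 634 were below that limit. Under oxygen it was 521, 414 and 467 of 539, 427 and 489. Septal nuclei were thus more common after sevoflurane, and shares without them were not computed. Inhibitory nuclei with at least 4000 UMIs were also thinned to 4000 UMIs, and the rule was applied again to the thinned counts. It then chose 131 nuclei, which can include nuclei that the exclusions had removed at full depth. Their shares of the thinned inhibitory nuclei were 9.05% ± 3.28 and 7.36% ± 1.48 (n = 3 each, exact permutation p = 0.4). In single libraries the 95% Wilson intervals, which cover counting error only, reached from 6.27% to 9.98% in the lowest and from 10.7% to 16.7% in the highest.

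**Figure D2:**
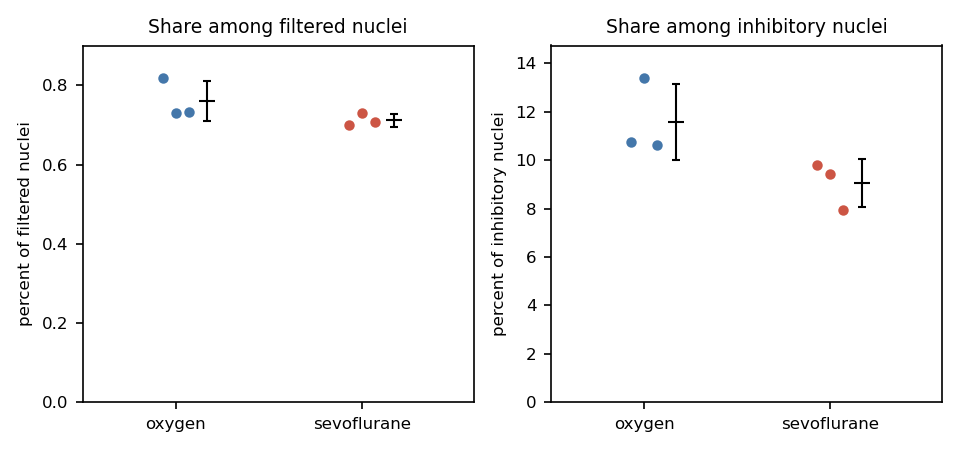
Share of the selected nuclei in percent of filtered nuclei (left) and of inhibitory nuclei (right), with 1 point per library and the mean ± SD in black. The groups overlap on the left, and on the right the sevoflurane libraries (7.93% to 9.78%) lie below the oxygen libraries (10.6% to 13.4%).

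Within the selected nuclei, 31 genes differed between sevoflurane and oxygen at an adjusted p under 0.05, of which 26 were lower and 5 higher after sevoflurane (edgeR's quasi-likelihood test on counts summed per library, Benjamini-Hochberg adjustment). This was 0.351% of 8840 genes tested, with 0.294% lower and 0.0566% higher, and 798 genes (9.03%) had an unadjusted p under 0.05. The lower genes included transcripts for receptors and their subunits (Htr7, Grik1, Kctd16), for 2 enzymes that break down cyclic nucleotides (Pde4b, Pde3a) and for axon and adhesion signalling (Epha3). Cdh13, Glis1 and Cystm1 were higher. All 31 had groups that did not overlap, as had 14.5% of all genes tested. The 8 genes of the rule were not among them. Predicted genes made up 2 of the rises and 2 of the falls and are not described further.

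The count rests on some libraries and settings. It was 6 without oxygen replicate 2, 9 without sevoflurane replicate 2, 12 without oxygen replicate 3 and 42 without sevoflurane replicate 1, and all 31 genes kept their sign in each of these fits. Nuclei with neither excitatory nor glial UMIs here means the 182 with fewer than 2 UMIs of the excitatory set and fewer than 3 of the glial set. These may still hold a few foreign UMIs. Among them 9 genes were called, 2 of them among the 31, and 30 of 30 that could be tested kept their sign. Without the third division 31 were called, 18 of them shared with the full set. At the fixed mix of divisions 35 were called, 20 of them shared. That fit used limma on log2 levels in place of edgeR, so test and normalization changed along with the mix. The split between rises and falls depended on the settings. It was 5 higher and 6 lower with library totals in place of TMM factors, which moved the median of all genes by 0.11 on the log2 scale, 5 and 7 after an offset for gene span, 52 and 119 with no filter on low counts, and 1 and 55 with DESeq2. The median span of a gene, introns included, was 257 kb among the falls, 125 kb among the rises and 38.5 kb among all genes tested.

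Pde4b encodes a phosphodiesterase that breaks down cyclic AMP (chromosome 4, 102087543 to 102607259 on mm10, plus strand). It had the smallest p-value of all genes. The selected nuclei held 675, 510 and 513 CPM in oxygen replicates 1 to 3 and 251, 224 and 275 CPM in sevoflurane replicates 1 to 3. Every sevoflurane library was below every oxygen library by a wide gap. The fall was -1.17 on the log2 scale (SE 0.14), with an adjusted p of 0.000665 by edgeR. It was called without any 1 of the 6 libraries, and in 16 of 19 alternative settings. Oligodendrocyte nuclei held far more Pde4b, 6404 CPM on average under oxygen and 4413 CPM after sevoflurane, and the part of free RNA in these counts was not tested. In nuclei with neither excitatory nor glial UMIs the log2 fold change was -0.96 and was not called. At the fixed mix of divisions it was -0.97 and after thinning -1.16, neither called. Vip nuclei averaged 795 CPM under oxygen and 482 CPM after sevoflurane, and Lamp5 nuclei 269 and 205 CPM. No test was run in these 2 small sets.

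**Figure D3:**
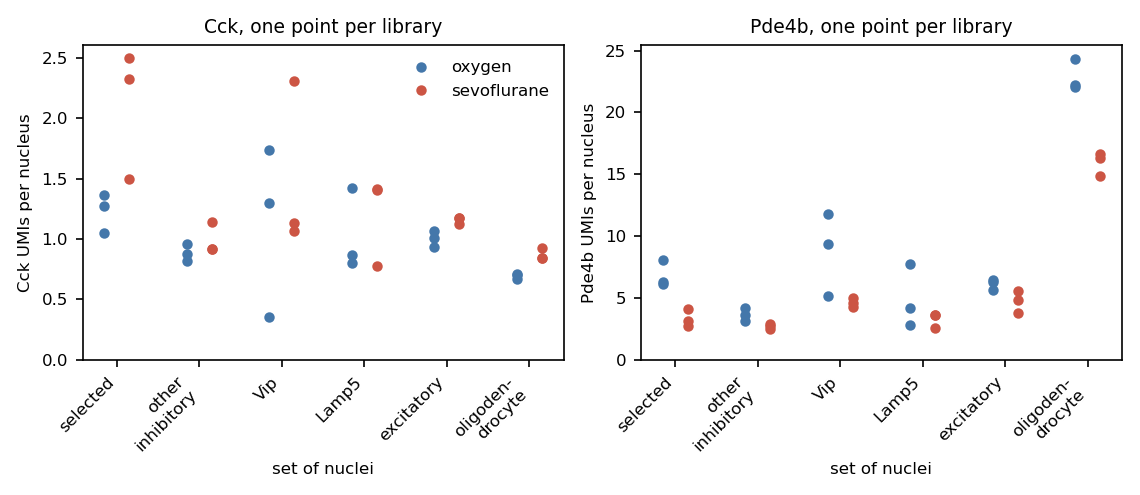
UMIs of Cck (left) and Pde4b (right) per nucleus in 6 sets of nuclei, with 1 point per library and oxygen in blue and sevoflurane in red. Pde4b in the selected nuclei lies at 6.11 to 8.05 UMIs under oxygen and 2.77 to 4.14 after sevoflurane, and both genes are also found in oligodendrocyte nuclei.

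Pde3a, which also breaks down cyclic nucleotides and is one of the genes that set these nuclei apart, stood at 556, 509 and 439 CPM under oxygen and 305, 318 and 258 CPM after sevoflurane. The groups did not overlap, and the log2 fold change was -0.76 (SE 0.13, adjusted p = 0.0152 by edgeR). The call was lost without sevoflurane replicate 3 or oxygen replicate 2, where the change was -0.68 and -0.75. It also ended with library totals (-0.65), the offset for gene span (-0.64), the stricter rule (-0.69) and in nuclei with neither excitatory nor glial UMIs (-0.71). After thinning the change of Pde3a was -0.22, without a call. Oligodendrocyte and excitatory nuclei held little of it, with means of 45.2 and 3.16 CPM under oxygen. Htr7 encodes a serotonin receptor coupled to cyclic AMP production (chromosome 19, 35958734 to 36057507 on mm10, minus strand). Its levels were 58.1, 97.5 and 67.5 CPM under oxygen and 23.3, 21.1 and 35.8 CPM after sevoflurane, again with no overlap. This was the largest fall among the named genes, -1.45 on the log2 scale (SE 0.25, adjusted p = 0.0152 by edgeR). It rests on 0.69 to 1.17 UMIs per nucleus under oxygen and 0.26 to 0.54 after sevoflurane, and was not called without sevoflurane replicate 2 (-1.30) or oxygen replicate 2 (-1.20), under the stricter rule (-1.15) or in nuclei with neither excitatory nor glial UMIs (-1.12). Oligodendrocyte nuclei held 0 to 5.46 CPM of it.

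Of 17 serotonin and acetylcholine receptor genes 9 passed the filter on low counts, and Htr7 alone was called. Chrna7, the nicotinic alpha 7 subunit, had a log2 difference of -0.74 (SE 0.16) that missed the threshold, with an adjusted p of 0.0545 by edgeR. It was below the oxygen libraries (158 to 219 CPM) in all sevoflurane libraries (88.7 to 130 CPM), a gene named after its values were seen. Htr3a, the ion-channel serotonin receptor that marks interneurons from the caudal eminence, was at 18.1 to 34.2 CPM under oxygen and 19.4 to 29.8 CPM after sevoflurane. The muscarinic receptor gene Chrm3 was at 1160 to 1320 CPM and 1015 to 1282 CPM.

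Kctd16 encodes an auxiliary subunit of GABA-B receptors that shapes their kinetics. It stood at 2274, 2549 and 2633 CPM under oxygen and 1648, 1731 and 1379 CPM after sevoflurane, a fall of -0.64 on the log2 scale (SE 0.12, adjusted p = 0.0243 by edgeR). No library of 1 group reached into the other. It was the only call among 8 tested genes for GABA-B receptors and their potassium channels, and was lost without sevoflurane replicate 3, oxygen replicate 2 or oxygen replicate 3 (-0.55, -0.62 and -0.60). Grik1, the gene of GluK1, fell by 0.65 on the log2 scale (SE 0.13, adjusted p = 0.0243 by edgeR), from 1389, 1785 and 1412 CPM to 932, 1025 and 938 CPM. The groups were apart, yet leaving out any library other than oxygen replicate 1 ended the call, with values of -0.53 to -0.71. At the fixed mix of divisions its change was -0.32, without the third division -0.41 and after thinning -0.052, none of them called. The list of ionotropic glutamate receptors held 18 tested genes, of which Grik1 alone was called. For Kctd16 and Grik1 the offset for gene span gave -0.51 and -0.50 and no call, as did library totals without TMM (-0.53 and -0.54), the stricter rule (-0.57 and -0.48) and nuclei with neither excitatory nor glial UMIs (-0.60 and -0.66). Kctd16 was -0.51 without the third division and -0.54 at the fixed mix, and Grik1 -0.61 with equal numbers of nuclei, none of them called.

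GABA synthesis and GABA-A receptor genes gave no call. Leaving out Gad1 and Gad2, which the rule used, 9 genes for making, packaging and taking up GABA were tested, and 7 lay above 0 and 2 below, with a median log2 change of 0.13. The median of all genes tested was 0.003, and 50.5% of them lay above 0. Of 14 tested GABA-A receptor genes, 4 lay above 0 and 10 below, with a median of -0.08, or -0.01 after the offset for gene span. Gabrg3, a gamma subunit, was at 853, 821 and 987 CPM under oxygen and 589, 431 and 756 CPM after sevoflurane, a log2 difference of -0.57 (SE 0.17, adjusted p = 0.23 by edgeR). Gabra4, an alpha subunit found in receptors outside the synapse, was at 50.3, 53.2 and 45.004 CPM under oxygen and 51.8, 102 and 97.2 CPM after sevoflurane, and its groups overlapped at sevoflurane replicate 1. Its log2 difference was 0.78 (SE 0.23, adjusted p = 0.20).

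The endocannabinoid genes of these cells showed no called difference. Of 19 genes of this list 13 were tested, not counting Cnr1, which the rule used, and 0 were called. Of the 13, 10 lay above 0, with a median log2 change of 0.05. Plcb1, a phospholipase that couples receptors to endocannabinoid synthesis, was at 712 to 823 CPM under oxygen and 533 to 667 CPM after sevoflurane, with a log2 difference of -0.32 (SE 0.13, adjusted p = 0.43 by edgeR). Mgll, the enzyme that degrades 2-arachidonoylglycerol, was at 120 to 138 CPM and 101 to 162 CPM. Faah, which degrades anandamide, was at 50.3 to 59.5 CPM and 46.6 to 62.3 CPM. Dagla and Daglb, which make 2-arachidonoylglycerol, lay at 28.1 to 46.4 and 21.5 to 38.0 CPM under oxygen, and after sevoflurane at 20.7 to 50.7 and 25.9 to 33.7 CPM. Cnr1 itself, as a description, was at 808 to 923 CPM and 713 to 862 CPM.

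Cck was at 87.7, 114 and 104 CPM under oxygen and 136, 176 and 154 CPM after sevoflurane. The 3 sevoflurane libraries were above the 3 oxygen libraries, with a log2 difference of 0.62 (SE 0.15) that missed the threshold with an adjusted p of 0.093 by edgeR. The background moved the same way. Oligodendrocyte nuclei held 0.71, 0.67 and 0.70 Cck UMIs per nucleus under oxygen and 0.84, 0.93 and 0.85 after sevoflurane, against 1.05, 1.36 and 1.28, and 1.5, 2.49 and 2.32 in the selected nuclei. Whether free RNA sets the difference was not tested. Of 17 tested genes of the cholecystokinin interneuron list 0 were called, and the list's median was -0.11, or 0.02 after the offset for gene span. Reln was at 1228, 813 and 1072 CPM under oxygen and 533, 388 and 688 CPM after sevoflurane, a difference of -0.94 (SE 0.21, adjusted p = 0.11 by edgeR). The neurogliaform marker list, which holds Reln, summed to 945 to 1433 CPM under oxygen and 508 to 816 CPM after sevoflurane, with Lamp5 itself at 0 by the rule. At the fixed mix the difference of Reln was -0.78. Without sevoflurane replicate 3 it was called, at -1.17. Leaving out Sst and Vip, which the rule used, only 4 of the neuropeptide genes (Cck, Npy, Pnoc and Tac2) passed the filter on low counts, and 0 were called. Npy was at 19.4 to 28.1 CPM under oxygen and 20.5 to 31.1 CPM after sevoflurane.

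**Figure D4:**
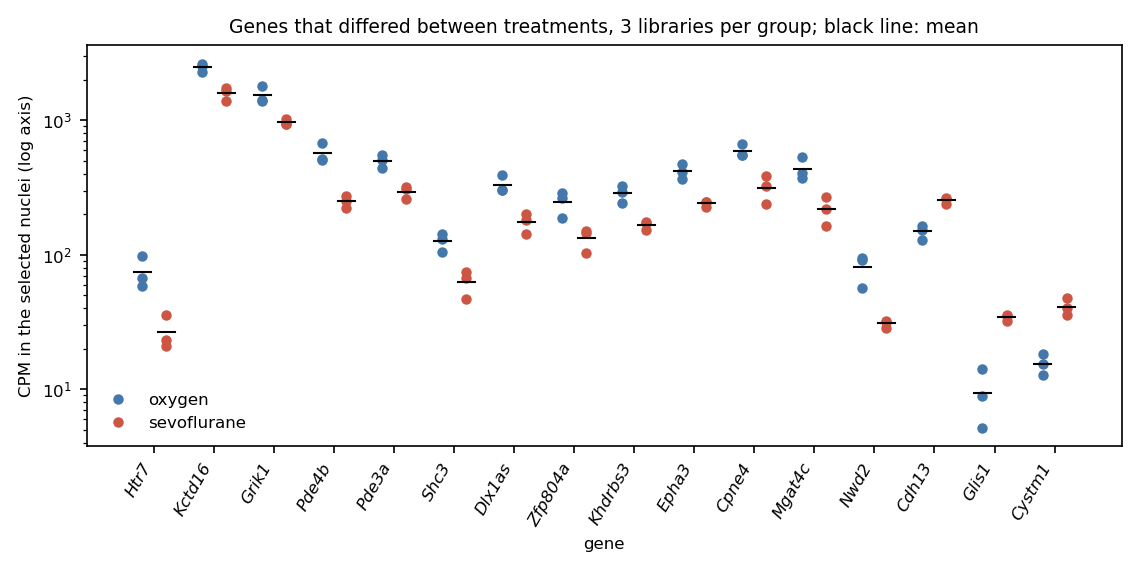
CPM on a log axis of 16 genes called in the selected nuclei, with 1 point per library (oxygen blue, sevoflurane red) and the group mean as a black line. The first 13 genes are lower after sevoflurane and the last 3 higher, and no gene's groups overlap.

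The remaining named falls concerned gene regulation, signalling and axon guidance. Dlx1as is a noncoding RNA opposite to Dlx1, a transcription factor of interneurons (chromosome 2, 71516454 to 71537891 on mm10, minus strand). It was at 302, 389 and 305 CPM under oxygen and 180, 200 and 143 CPM after sevoflurane, a log2 change of -0.92 (SE 0.15, adjusted p = 0.0152 by edgeR). Dlx1 lies within its span on the plus strand and was at 32.9 to 45.2 CPM and 22.2 to 44.999 CPM, with a difference of -0.12 (SE 0.27). Whether the counting used strand is not given in the sources used here, so reads of the overlap may be assigned to either gene. Dlx1as was not called without oxygen replicate 2 (-0.79) or in nuclei with neither excitatory nor glial UMIs (-0.65).

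Zfp804a, which encodes a zinc-finger protein, was at 187, 263 and 285 CPM under oxygen and 149, 103 and 145 CPM after sevoflurane (log2 change -0.88, SE 0.17, adjusted p = 0.0316 by edgeR). The groups were apart, but only the fits without sevoflurane replicate 1 or oxygen replicate 1 kept the call among those that left out a library, and the others gave -0.73 to -0.96. It was also lost with library totals (-0.77), the offset for gene span (-0.78), the fixed mix (-0.71) and in nuclei with neither excitatory nor glial UMIs (-0.91). Khdrbs3 encodes a splicing regulator of neurexin transcripts. It was at 243, 295 and 326 CPM under oxygen and 172, 152 and 176 CPM after sevoflurane, a log2 change of -0.78 (SE 0.14, adjusted p = 0.0161 by edgeR). Excitatory nuclei held more of it, at means of 952 and 713 CPM. Without the third division its change was -0.31 and was not called, and without sevoflurane replicate 2, oxygen replicate 2 or oxygen replicate 3 it was not called (-0.72, -0.76 and -0.68). It was -0.55 under the stricter rule, -0.52 at the fixed mix, -0.31 after thinning and -0.40 in nuclei with neither excitatory nor glial UMIs, none of them called.

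Shc3, a neuronal adaptor of receptor tyrosine kinases, was at 130, 143 and 105 CPM under oxygen and 73.8, 46.4 and 67.5 CPM after sevoflurane (log2 change -1.01, SE 0.18, adjusted p = 0.0173 by edgeR). It was not called without sevoflurane replicate 2 (-0.84) or oxygen replicate 2 (-0.91), or with library totals (-0.91). Epha3, an ephrin receptor, went from 470, 369 and 412 CPM to 249, 226 and 247 CPM, a change of -0.78 (SE 0.13, adjusted p = 0.0152). The call was lost without sevoflurane replicate 2 (-0.74), after the offset for gene span (-0.64), at the fixed mix (-0.53) and in nuclei with neither excitatory nor glial UMIs (-0.49).

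Cpne4, a calcium-dependent membrane-binding protein that also marks CA3 pyramidal neurons, went from 547, 548 and 668 CPM to 322, 239 and 384 CPM (log2 change -0.89, SE 0.16, adjusted p = 0.0161 by edgeR). The summed markers of CA3 and CA2 pyramidal neurons, of which Cpne4 is the major part, were 586 to 712 CPM under oxygen and 307 to 415 CPM after sevoflurane. Excitatory nuclei held 433 CPM of Cpne4 on average under oxygen and 365 CPM after sevoflurane. In nuclei with neither excitatory nor glial UMIs its change was -0.9999, without a call. Leaving out sevoflurane replicate 2, oxygen replicate 2 or oxygen replicate 3 ended the call (-0.73, -0.94 and -0.79), as did leaving out the third division (-0.60) and the offset for gene span (-0.73). After thinning the change of Cpne4 was -0.33, without a call.

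Mgat4c, of a family of glycan-building enzymes, had a log2 change of -0.997 (SE 0.18, adjusted p = 0.0243 by edgeR) with 374, 531 and 404 CPM under oxygen and 219, 163 and 270 CPM after sevoflurane. The call held without sevoflurane replicate 3 or oxygen replicate 1 and ended without any other library (-0.83 to -1.05). Library totals (-0.89), the offset for gene span (-0.81), the stricter rule (-1.28) and the stricter filter on nuclei (-0.92) ended it too, as did leaving out nuclei with excitatory or glial UMIs (-1.13). Nwd2 went from 94.2, 57.0 and 91.4 CPM to 32.4, 31.7 and 28.6 CPM, a change of -1.37 (SE 0.23, adjusted p = 0.0152). It was -0.85 and not called without the third division, and was not called without oxygen replicate 3 (-1.28), under the stricter rule (-1.32) or in nuclei with neither excitatory nor glial UMIs (-0.81). The groups of both genes were apart.

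Of the 3 named rises, Cdh13, a cadherin without an intracellular domain, was the most abundant. Its oxygen libraries held 154, 129 and 165 CPM and its sevoflurane libraries 239, 262 and 266 CPM, with a log2 change of 0.79 (SE 0.14, adjusted p = 0.0152 by edgeR). Without the third division the change was 0.21 and was not called, and the call also ended without sevoflurane replicate 2 (0.77) or oxygen replicate 2 (0.70). Under the stricter rule, with at least 5 UMIs of Gad1 and Gad2 together, 5 of Cnr1 and 3 of Adarb2, it was 0.33, with equal numbers of nuclei 0.65 and in nuclei with neither excitatory nor glial UMIs 0.69, none of them called. Cdh13 was the only call among 25 tested synaptic adhesion genes, of which 6 lay above 0 and 19 below, with a median of -0.21, or -0.02 after the offset for gene span.

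Glis1, a zinc-finger transcription factor (chromosome 4, 107434591 to 107635061 on mm10, plus strand), had the largest rise. It was at 5.16, 8.87 and 14.1 CPM under oxygen and 32.4, 35.9 and 34.8 CPM after sevoflurane, and the groups were far apart. The log2 change was 1.89 (SE 0.33, adjusted p = 0.0152 by edgeR), and it was not called without sevoflurane replicate 2 (1.85) or oxygen replicate 2 (1.86). Glis1 was too scarce to be tested in nuclei with neither excitatory nor glial UMIs or after thinning. It stood in a list of genes called earlier in wider sets of these neurons, so its direction is not independent evidence. Of 10 tested genes of that list Glis1 alone was called, and the median was -0.53, or -0.39 after the offset for gene span. Cystm1 was at 15.5, 12.7 and 18.3 CPM under oxygen and 40.1, 47.5 and 35.8 CPM after sevoflurane (log2 change 1.42, SE 0.27, adjusted p = 0.022). The call was lost without sevoflurane replicate 2 (1.29), oxygen replicate 2 (1.29), oxygen replicate 3 (1.55) or the third division (1.29). It was also lost under the stricter rule (1.26), under the stricter filter on nuclei (1.29) and in nuclei with neither excitatory nor glial UMIs (1.35).

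Another 7 rises with groups apart missed the threshold. Pde1c, a phosphodiesterase activated by calcium and calmodulin, was at 33.5, 25.3 and 39.4 CPM under oxygen and 54.4, 59.1 and 92.0 CPM after sevoflurane (log2 difference 1.09, SE 0.25, adjusted p = 0.056 by edgeR), and it was called, at 1.46, without the third division. Gpc4, a proteoglycan of the cell surface, was at 6.45 to 11.4 CPM and 23.5 to 35.9 CPM. Meis2, a homeobox transcription factor, was at 9.84 to 18.1 CPM and 24.6 to 57.0 CPM. Cacna1h, a T-type calcium channel, was at 8.44 to 16.5 CPM and 22.2 to 39.9 CPM. These 3 were too scarce to be tested without the third division. Arhgef33, Plekhg5 and Rreb1 had differences of 1.67, 1.09 and 1.38, and Plekhg5 had 0.32 without the third division.

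Cholesterol synthesis genes lay above 0 in 10 of 11 tested, with a median log2 difference of 0.60, and 0 were called. Cyp51, the sterol demethylase of that pathway, was at 23.2, 22.8 and 19.7 CPM under oxygen and 45.3, 36.9 and 48.1 CPM after sevoflurane (log2 difference 0.99, SE 0.25, adjusted p = 0.095 by edgeR). Of 27 immediate early genes only 9 passed the filter on low counts. Of these 8 lay above 0, with a median of 0.47, and 0 were called. Homer1 was at 99.3, 97.5 and 64.7 CPM under oxygen and 104, 130 and 128 CPM after sevoflurane. Fos, at 0 to 3.87 CPM and 5.11 to 8.44 CPM, did not pass that filter.

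Among glucocorticoid-responsive genes 7 of 10 tested lay above 0, with a median of 0.46 and no call. Per1, also a clock gene, was at 15.5, 8.87 and 9.84 CPM under oxygen and 31.1, 22.2 and 30.7 CPM after sevoflurane, a log2 difference of 1.28 (SE 0.33, adjusted p = 0.10 by edgeR). Fkbp5, a chaperone of the glucocorticoid receptor, was at 64.6 to 99.9 CPM and 98.4 to 143 CPM, with groups that overlapped. Circadian genes had a median of 0.22 over 12 tested. Of 11 chaperone genes tested 0 were called, and Hspa5, the main chaperone of the endoplasmic reticulum, was at 38.0 to 44.3 CPM under oxygen and 20.7 to 29.6 CPM after sevoflurane (difference -0.72, SE 0.24).

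No gene of the other excitability and release lists was called. Of 25 voltage-gated potassium channel genes tested 18 lay below 0, with a median of -0.17, or -0.07 after the offset for gene span, and 0 were called. Kcnh7 was at 801 to 1022 CPM under oxygen and 431 to 714 CPM after sevoflurane, a difference of -0.60 (SE 0.17). Kcnc2, a fast potassium channel, had a difference of -0.59 (SE 0.17). The 15 calcium channel genes had a median of -0.17, the 8 sodium channel genes 0.02 and the 25 release genes -0.05, with 0 called in each. After the offset for gene span these medians were -0.05, 0.04 and -0.04. Rims1, which organizes the active zone, was at 1763 to 1842 CPM under oxygen and 1291 to 1359 CPM after sevoflurane (difference -0.43, SE 0.11, adjusted p = 0.11 by edgeR). Erbb4, the neuregulin receptor of interneurons, was at 4702 to 6721 CPM and 3066 to 4716 CPM, with groups that overlapped. Of 15 interneuron transcription factor genes tested 0 were called. Npas3 was at 4075 to 4875 CPM and 3206 to 3606 CPM (difference -0.42, SE 0.12). Methylthioadenosine and polyamine genes, the subject of the series' title, had 5 of 10 tested above 0, a median of 0.03 and no call. In these nuclei Amd1, a gene of polyamine synthesis, was at 18.1 to 26.7 CPM under oxygen and 31.7 to 36.9 CPM after sevoflurane (0.64, SE 0.26).

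The other inhibitory nuclei of the same 6 libraries give the changes beside these. Over all 3499 of them 296 of 15130 genes were called (1.96%), with 118 higher and 178 lower. That set is broader and deeper, at 4869311 to 10052388 UMIs per library. It holds nuclei with septal markers, which were more common in the sevoflurane libraries, so treatment and mix of nuclei cannot be told apart in its changes. Without those septal nuclei 263 genes were called. Restricted to the 1047 with at least 10 Adarb2 UMIs, a set chosen after seeing the data, 5 of 12167 genes were called (0.0411%), with 2 higher and 3 lower. Pde4b was among the 5, with a log2 change of -1.004 against -1.17 in the selected nuclei, while over all other inhibitory nuclei it had -0.40. Grik1 and Kctd16 had -0.83 and -0.71 in all other inhibitory nuclei, where they were called, against -0.65 and -0.64. Htr7 had -0.21 there and was not called, and -1.02 in those with Adarb2. Cdh13 had -0.04, and Glis1 0.64, neither of them called. Of the 31 genes called in the selected nuclei, 30 had the same sign in all other inhibitory nuclei, where 14 were called. In those with Adarb2, 30 had the same sign and 2 were called. Both sets come from the same libraries as the selected nuclei, and the share of same signs over all genes was not computed.

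The difference between the responses was tested directly, with limma on the difference of log2 CPM between the selected and the other inhibitory nuclei of each library. Of 8838 genes tested in both, 0 were called (0.0%), and 479 (5.42%) had an unadjusted p under 0.05. The smallest adjusted p was 0.158. Pde4b was among the genes with the smallest p, its response in the selected nuclei lying lower by 0.78 on the log2 scale (difference -0.78, SE 0.15). Htr7 had a difference of -1.20 (SE 0.25) and Cdh13 of 0.80 (SE 0.17). Grm8, a glutamate receptor of presynaptic terminals, had -0.86 (SE 0.16), with -0.12 in the selected and 0.69 in the other inhibitory nuclei, and Hs3st2 had -1.57 (SE 0.30) with -0.08 and 1.49. In the other inhibitory nuclei with Adarb2 these last 2 genes stood at -0.09 and 0.18. Mertk, a phagocytic receptor of glia, had 1.69 (SE 0.35) and was at 5.07 to 15.5 CPM under oxygen and 7.77 to 24.3 CPM after sevoflurane. With a prior count of 5 in place of 2 the count of calls was 3, without nuclei with excitatory or glial UMIs 2, and 1 without sevoflurane replicate 1, sevoflurane replicate 2 or oxygen replicate 1. Leaving septal nuclei out of the other set gave 0 calls. The unequal number of septal nuclei may enter these differences, and its part in single genes was not tested.

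**Figure D5:**
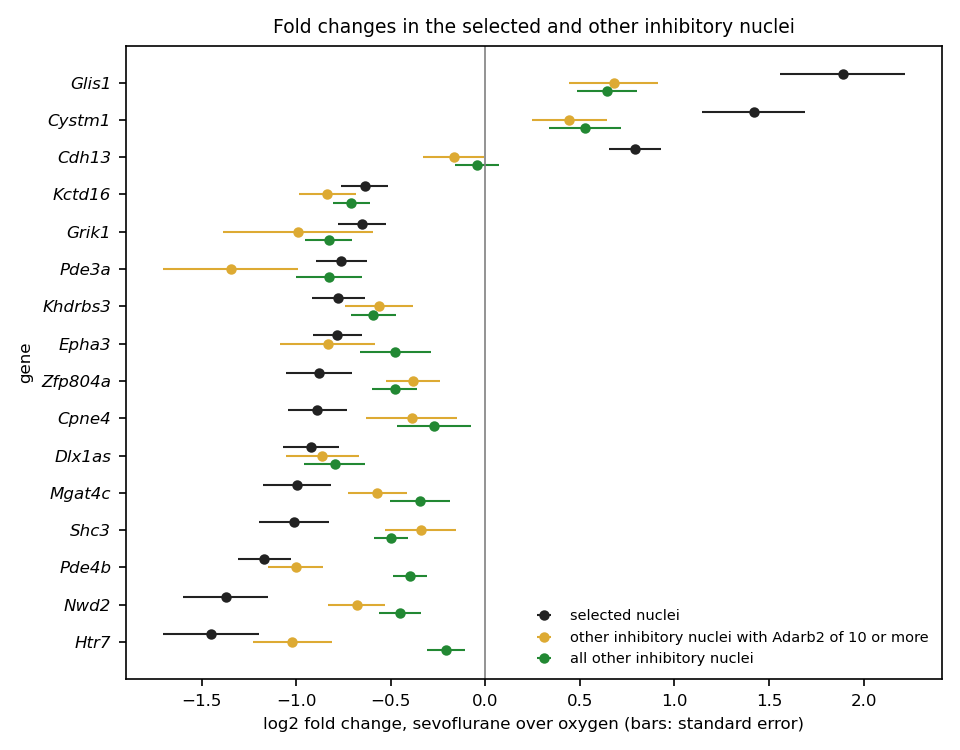
Log2 fold change, sevoflurane over oxygen, with its standard error for 16 genes in the selected nuclei (black), in other inhibitory nuclei with at least 10 Adarb2 UMIs (yellow) and in all other inhibitory nuclei (green). Grik1 and Kctd16 lie close together in the selected and in all other inhibitory nuclei, while Htr7 (-1.45 against -0.21) and Cdh13 (0.79 against -0.04) lie further apart.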

How the data were processed

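Nuclei from 6 libraries were profiled with droplet 3' libraries, per the labels' protocols. The deposited matrices hold raw counts, whole UMIs per gene and barcode, written by Cell Ranger 7.1.0 per the file headers. The submitters' processing notes also name fastp and mm10. The annotation, and any use of introns or strand, is not given in the sources used here. Of 32285 genes listed, 32158 were matched to GENCODE M21 for positions.

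Counts of the selected nuclei were summed per library and tested with edgeR 4.0.16 (robust quasi-likelihood, TMM, filterByExpr, treatment as the only term) in R 4.3.3, with calls at an adjusted p under 0.05. Levels are CPM, counts per 1000000 UMIs, on the TMM scale, except in the divisions, where the 6 libraries are summed. Responses were compared with limma 3.58.1 (prior count 2). The fixed mix of divisions was tested with limma too, on log2 of the averaged CPM with 3 added. DESeq2 1.42.0 was an alternative. The scripts were tested on simulated data. Doublets came from Scrublet in scanpy 1.11.5, with a common threshold of 0.3. Divisions came from Leiden clustering (2000 variable genes, 15 principal components, resolution 0.6).

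The members and gene lists were chosen with earlier results of these data known. Named genes were the 10 largest called rises and falls with at least 10 CPM in 1 group and groups apart, filled by the smallest p, up to 6 called genes of each list or otherwise the 2 of smallest p, the 6 of smallest p in each direction for the difference of the responses, and the 10 highest and lowest against the other inhibitory nuclei. Predicted genes and the 8 rule genes were left out. Other list members are named as descriptions and were chosen after their values were seen. The alternatives were normalization, filters, gene span, doublets, foreign UMIs, a stricter rule or nuclei filter, thinning, equal numbers of nuclei, prior counts, a replicate block and leaving out each library. Some genes are not reported here.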

Additional observations from a re-analysis of the deposited data

How the results depend on the processing

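The 31 called genes kept their sign in every alternative in which they were tested. With 3 libraries per group and 735921 to 955066 UMIs each, the number of calls was less stable: 56 with DESeq2, 11 with library totals, 171 with no filter on low counts, 12 with the gene span offset, 9 without nuclei with excitatory or glial UMIs, 11 under the stricter rule and 0 after thinning, where 1696 genes were tested and 95 had an unadjusted p under 0.05 by edgeR. After thinning Kctd16 stood at -0.58, Epha3 at -0.52, Mgat4c at -0.82, Dlx1as at -1.12 and Zfp804a at -1.26. Grik1 stood at only -0.052 there and Pde3a at -0.22. Leaving out 1 library gave 6 to 42 calls. The shares kept their direction, with differences of -0.063 to -0.019 percentage points of filtered and -3.03 to -1.64 of inhibitory nuclei when 1 library was left out. In the other inhibitory nuclei leaving out 1 library gave 70 to 265 calls, and those with Adarb2 gave 5. The difference of the responses had 3 calls with a prior count of 5, 2 without nuclei with excitatory or glial UMIs, and 0 to 1 when 1 library was left out. The cause of these shifts was not tested.

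Replicate numbers did not pair the libraries, since same-numbered libraries correlated at -0.025, -0.065 and 0.012 in their deviations from the group means. With a replicate block 62 genes were called in the selected nuclei, 115 in the other inhibitory nuclei and 0 for the difference of the responses.

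Of 1120 values of 64 named genes under the alternatives, 939 kept direction and side of the threshold, 110 lost a call, 51 gained one and 20 changed sign, none of them a called gene. Thinning gave 0.074 for Plcb1 and 0.0028 for Syt1. Scn9a ran from -0.046 to 0.36 when 1 library was left out. Pde5a ran from -0.31 to 0.099 when 1 library was left out. It stood at 0.080 with library totals, 0.0089 with the span offset and 0.0039 without doublets. In nuclei with neither excitatory nor glial UMIs it was 0.13. It was 0.048 with equal nuclei, 0.026 without the third division and 0.14 at the fixed mix. Hs3st2 was 0.026 with library totals and ran from -0.43 to 0.34 when 1 library was left out. Grm8 was 0.080 with the span offset, 0.023 in nuclei with neither excitatory nor glial UMIs and 0.011 under the stricter rule. It ran from -0.33 to 0.0096 when 1 library was left out.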
